A study of Mus musculus with 6 samples.

Results

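The genes described here encode the subunits of RNA polymerases I, II and III and the factors that bring polymerases I and III to their promoters. Members were the genes whose single symbol in the array's annotation table began with Polr1, Polr2 or Polr3 and a further letter, together with Taf1a, Taf1b, Taf1c, Taf1d, Rrn3, Brf1, Brf2 and Bdp1. This gave 33 genes of 18193 on the array, each read from its brightest probe set, by the mean of the 6 arrays. They comprised 3 subunits found only in polymerase I, 5 polymerase I initiation factors, 2 subunits shared by polymerases I and III, 9 found only in polymerase III, 3 polymerase III initiation factors, 3 shared by all polymerases and 8 found only in polymerase II. Polr2k and Polr2l, both used by all the enzymes, are outside this set because each shares its only probe set with another symbol. All 33 had at least one group mean above the range of the array's negative control probe sets (2.13 to 3.92 on the log2 scale).

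The cells were long-term haematopoietic stem cells of mouse bone marrow, gated as Lin-Sca1+CD150+CD48-. Arrays labelled dKO came from MxCre c-myc f2 N-myc f2 mice, in which an interferon-responsive promoter drives the Cre recombinase that removes both floxed Myc genes, and arrays labelled Control from c-myc f2 N-myc f2 mice without the recombinase. The label of control array 2 reads M-Myc for N-myc. All mice were of mixed background and 8 weeks old, and both groups received 2 daily injections of pI-pC, a double-stranded RNA that induces interferon, and were killed 3 days after the last. Each group had 3 arrays, each of RNA pooled from 3 dKO or 2 control mice, so the spread between arrays is a spread between pools. The Mx promoter is active in many cell types, so other marrow cells of these mice may also carry the deletion.

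The 3 nuclear RNA polymerases divide the genome between them. Polymerase I makes the precursor of the large ribosomal RNAs in the nucleolus, polymerase III makes transfer RNAs, the smallest ribosomal RNA and other short RNAs, and polymerase II makes messenger RNAs. Each enzyme has its own catalytic core and shares a few small subunits with the others. Myc proteins are known to raise transcription by all 3 enzymes, and growing cells spend much of their transcription on ribosomal and transfer RNA. The comparison asks how far the genes of the enzymes themselves followed the loss of c-myc and N-myc.

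Of the 33 members, 2 fell in dKO cells and 0 rose by limma's moderated test with Benjamini-Hochberg adjustment over all probe sets (adjusted p under 0.05). They were Polr3g, a subunit of polymerase III, and Polr1b, the second-largest subunit of polymerase I. The 2 falls are 6.06% of members, against 3.56% of all genes called lower and 4.49% called higher, so the share is near the background. At an unadjusted limma p under 0.05, 6 of the 33 members were lower and 3 higher, against 1964 (10.8%) and 2232 (12.3%) of 18193 genes. The lower share was thus above that of all genes and the higher share below it, on few members. Of the 2 probe sets annotated with Polr2k or Polr2l and a second symbol, which cannot be assigned to one gene, 1 was higher in dKO cells (8.71, 9.15 and 8.48 in control arrays, 9.78, 9.84 and 9.54 in dKO arrays; 0.94 ± 0.20 SE, log2, adjusted p = 0.0362). The other had a difference of 0.01. Over the whole array 3.57% of probe sets were called higher. The median difference, dKO minus control, was 0.01 on the log2 scale over the members and 0.01 over all genes. Values of the groups did not overlap at 7 members lower in dKO cells (21.2%, against 14.2% of all genes) and at 6 higher (18.2%, against 15.8%).

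Split by enzyme, the medians lay on different sides of 0, though members of one enzyme did not all share a sign. Of the 3 subunits found only in polymerase I, 2 were below 0 and 1 above. Of the 9 found only in polymerase III, 6 were below and 3 above, and all 8 found only in polymerase II were above. The median log2 difference was -0.65 over the 3 subunits found only in polymerase I, -0.26 over the 5 polymerase I initiation factors, -0.30 over the 9 subunits found only in polymerase III and 0.29 over the 8 found only in polymerase II. Over the 3 subunits common to all the enzymes it was 0.06, over the 2 shared by polymerases I and III it was -0.24, and over the 3 polymerase III initiation factors it was -0.17. With the mean of a gene's probe sets in place of the brightest, the polymerase I subunits had -0.32 and the polymerase III subunits -0.16. The -0.32 was the value of Polr1a, whose mean takes in 2 probe sets that read in the negative control range. Leaving out control array 1 or dKO array 1 moved the median of the polymerase I factors to -0.05 or -0.16, and leaving out control array 3 or dKO array 3 moved it to -0.41. The median of the polymerase III subunits was -0.19 with control array 3 left out. With any 1 array left out, that of the set shared by polymerases I and III ranged from -0.38 to -0.13 and that of the polymerase III factors from -0.23 to -0.07. Taking each gene's deviation from its own control mean, the median over the polymerase II subunits was 0.24, 0.40 and 0.28 in the dKO arrays and -0.02 to 0.08 in the control arrays. The same median over the polymerase III subunits was -0.31, -0.23 and -0.15 in the dKO arrays and -0.09 to 0.10 in the controls. For the polymerase I subunits it was -1.06, -0.40 and -0.49 in the dKO arrays and -0.04 to 0.04 in the controls. In each of these sets the dKO arrays stood on one side of the control arrays. So did those of the polymerase I factors (-0.41 to -0.05, controls -0.04 to 0.08). The groups overlapped in the other sets. The dKO and control ranges were -0.43 to -0.04 and -0.28 to 0.22 for the set shared by polymerases I and III. For the polymerase III factors they were -0.28 to 0.11 and -0.10 to 0.17, and for the subunits common to all the enzymes -0.04 to 0.20 and -0.21 to 0.26. Differences between the enzymes were not tested, and the genes of one enzyme are not independent of each other.

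**Figure D1:**
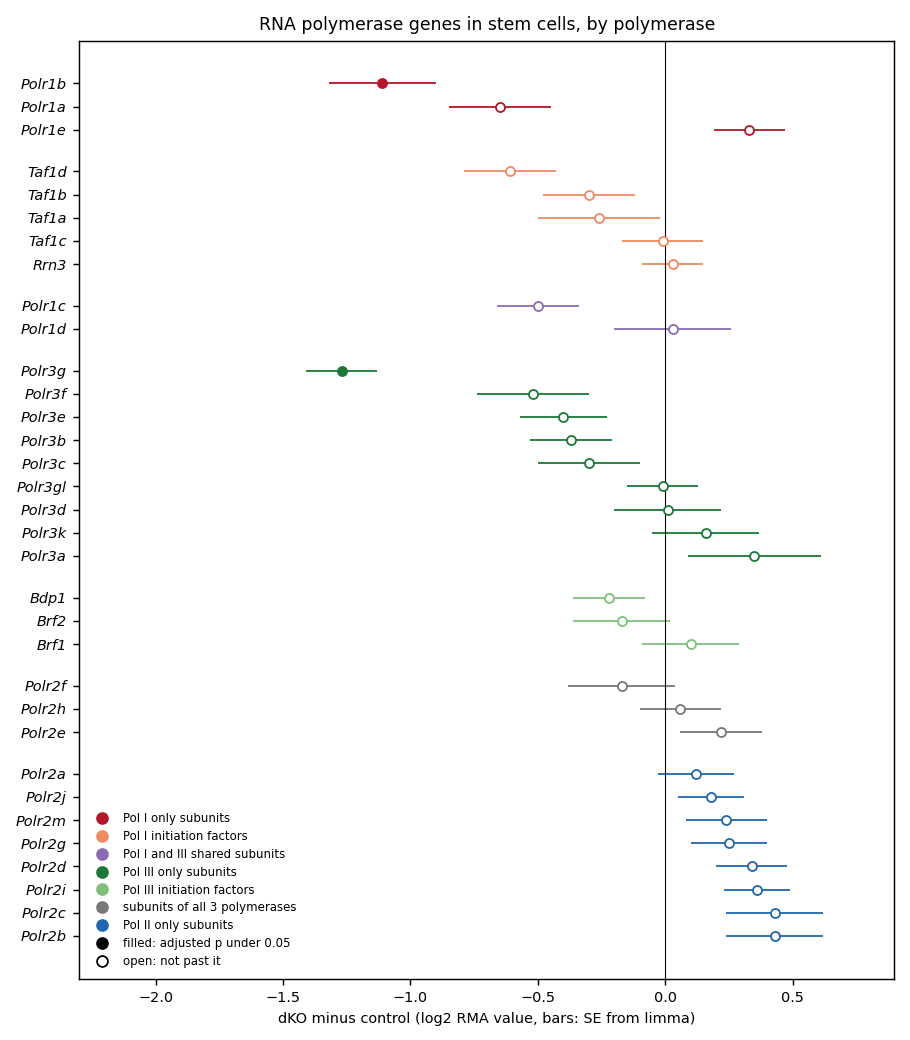
Each point is the difference between dKO and control of 1 member on the log2 scale, with limma's SE as the bar, and members are grouped by polymerase and sorted within each group. Only Polr1b (-1.11) and Polr3g (-1.27) are filled, as genes past an adjusted p of 0.05, and the 8 polymerase II subunits all lie to the right of 0, between 0.12 and 0.43.

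The promoters of the members were examined for the E-box CACGTG, the sequence that Myc binds with its partner Max. The reason was that c-myc and N-myc were the genes targeted in dKO mice. Myc protein was not measured. RefSeq promoter windows (mouse build GRCm38.p6, 250 bases before to 50 after the start of the gene) were found by symbol for 27 of the 33 members. CACGTG, which reads the same on both strands, was present in windows of 5 of these 27 genes (18.5%), against 8.09% of 27025 genes in the table. They were Rrn3, Polr3gl, Polr3c, Polr3e and Polr2h, none of which passed the test. The related CACGCG, searched on both strands with overlapping matches allowed, was present in 11 of the 27 (40.7%), against 10.5% of all genes. Polr3g was the 1 gene among them that fell. The others were Polr1c, Polr1e, Polr2b, Polr2e, Polr2f, Polr2h, Polr2j, Polr3c, Polr3k and Taf1d, which had differences on both sides of 0. A match is a description of the letters and not a binding site. The windows of the members and of all genes were not matched for G and C content, and the shares were not tested against each other.

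The stretches before the start are shown for both genes that fell, for Polr3gl, the paralog of Polr3g, and for Rrn3, the member with the most E-boxes. They lie at chr2:129100746-129100995 (plus strand), chr13:81711014-81711263 (minus strand), chr3:96594182-96594431 (minus strand) and chr16:13780449-13780698 (plus strand), each 250 bases, 5′ to 3′, with CACGTG in capitals.
Polr1b: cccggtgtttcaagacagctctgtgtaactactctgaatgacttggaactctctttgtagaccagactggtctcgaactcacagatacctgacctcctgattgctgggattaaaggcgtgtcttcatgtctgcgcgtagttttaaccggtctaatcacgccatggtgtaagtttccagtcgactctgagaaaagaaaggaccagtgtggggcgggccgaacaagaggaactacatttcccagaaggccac
Polr3g: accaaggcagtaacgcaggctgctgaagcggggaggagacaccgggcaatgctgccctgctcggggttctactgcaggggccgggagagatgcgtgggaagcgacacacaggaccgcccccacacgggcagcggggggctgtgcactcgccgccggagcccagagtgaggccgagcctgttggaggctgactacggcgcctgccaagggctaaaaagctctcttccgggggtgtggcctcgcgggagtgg
Polr3gl: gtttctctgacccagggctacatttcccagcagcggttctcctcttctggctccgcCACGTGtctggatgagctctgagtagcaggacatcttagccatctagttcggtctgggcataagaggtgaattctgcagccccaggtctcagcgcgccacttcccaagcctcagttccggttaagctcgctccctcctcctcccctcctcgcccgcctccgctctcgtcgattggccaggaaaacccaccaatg
Rrn3: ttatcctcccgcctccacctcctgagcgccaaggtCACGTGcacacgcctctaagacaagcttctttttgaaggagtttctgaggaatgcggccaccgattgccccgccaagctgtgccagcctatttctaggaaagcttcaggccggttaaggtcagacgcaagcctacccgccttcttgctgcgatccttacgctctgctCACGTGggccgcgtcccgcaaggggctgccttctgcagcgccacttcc
The Polr1b and Polr3g stretches held 0 matches, that of Polr3gl held 1, whose first base lies at -194 relative to the start of the gene, and that of Rrn3 held 2, at -215 and -48. Polr3g had a CACGCG only downstream of the shown stretch, at position 35. G and C made up 68.4% of the Polr3g stretch, 59.2% of the Polr3gl stretch, 59.6% of the Rrn3 stretch and 49.6% of the Polr1b stretch.

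In polymerase I, Polr1b fell. With Polr1a it forms the catalytic cleft of the enzyme. Its log2 values were 7.06, 7.08 and 7.16 in the control arrays and 5.79, 5.75 and 6.45 in the dKO arrays. All dKO arrays lay below all control arrays, and dKO array 3 was the highest of its group. Group means were 7.10 ± 0.05 in control and 5.99 ± 0.39 in dKO cells (SD, n = 3 arrays each). The decrease was 2.15-fold, or -1.11 ± 0.21 (SE) on the log2 scale, with a limma adjusted p of 0.025. The call depended on which array was left out. It was kept without dKO replicate 3 (adjusted p = 0.0172) and lost without control replicate 1, 2 or 3 (0.0664, 0.0737 and 0.077) or dKO replicate 1 or 2 (0.0849 and 0.0803), with log2 changes of -1.33 to -0.98.

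Polr1a, the largest subunit and the one that carries the active site, had values of 8.78, 9.01 and 8.78 in control arrays and 7.80, 8.46 and 8.37 in dKO arrays. The groups did not overlap, and dKO array 1 was the lowest. The difference was -0.65 ± 0.20 (SE, log2), with an adjusted p of 0.115, and did not pass the test. All 5 Polr1a probe sets had differences below 0, from -0.65 to -0.08, and the 2 nearest 0 read within the negative control range in both groups. Polr1e encodes a subunit of the polymerase I heterodimer that resembles an initiation factor of polymerase II. Its brighter probe set read 7.45, 7.37 and 7.46 in control arrays and 7.89, 7.60 and 7.76 in dKO arrays, a difference of 0.33 ± 0.14 (adjusted p = 0.219). The other Polr1e probe set gave -0.18 (adjusted p = 0.651), so its direction rests on the probe set used.

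Other subunits of polymerase I carry symbols that the member rule does not reach, and they were read from a separate list. Twistnb, now also called Polr1f, is a stalk subunit that meets the initiation factor Rrn3, and it fell. Its brightest probe set read 10.61, 10.70 and 10.73 in control arrays and 9.91, 9.94 and 9.82 in dKO arrays. The groups were tight and did not overlap, and the decrease was 1.73-fold (-0.79 ± 0.12 SE on the log2 scale, adjusted p = 0.0143). The other two Twistnb probe sets gave -0.88 and -0.61 (adjusted p = 0.0556 and 0.064). The Twistnb call was lost without control replicate 2 (adjusted p = 0.0527) and without dKO replicate 1 (0.0502) or 3 (0.053). Cd3eap, the partner of Polr1e, read 6.77, 6.51 and 6.64 in control and 6.22, 6.07 and 6.23 in dKO arrays, a difference of -0.47 ± 0.14 (adjusted p = 0.0963). Znrd1, a subunit that acts in RNA cleavage, had a difference of 0.11 (adjusted p = 0.747).

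Among the factors that load polymerase I onto ribosomal DNA, 0 of 5 passed the test, and 1 had an unadjusted p under 0.05. Rrn3, which makes the polymerase competent to initiate, was 8.01, 7.92 and 7.97 in control arrays and 8.08, 7.93 and 7.98 in dKO arrays. The groups overlapped, the difference was 0.03 ± 0.12 (SE, log2; adjusted p = 0.93), and the spread of Rrn3 within groups was the lowest among the members (0.06, against a median of 0.20 over the members and 0.21 over all genes). Taf1a, Taf1b, Taf1c and Taf1d encode subunits of selectivity factor 1, which binds the ribosomal promoter. Their differences were -0.26, -0.30, -0.01 and -0.61.

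Taf1d, which is also a host gene of small nucleolar RNAs, was read by 7 probe sets. Its representative had 9.33, 9.50 and 9.81 in control arrays and 9.13, 8.89 and 8.79 in dKO arrays, with no overlap and a difference of -0.61 ± 0.18 (adjusted p = 0.0941). All 7 probe sets were below 0, from -0.89 to -0.25, and 2 of them passed the test. One of these read 9.55, 9.55 and 9.88 in control and 8.80, 8.91 and 8.61 in dKO arrays, a log2 change of -0.89 ± 0.16 (adjusted p = 0.0215). The other had a log2 change of -0.76 ± 0.16 (adjusted p = 0.0385). For Taf1d the choice of probe set decided the call. Over all 69 member probe sets, 4 (5.8%) were called lower, 2 of them for Taf1d, and 0 higher, against 3.41% of all probe sets called lower.

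**Figure D2:**
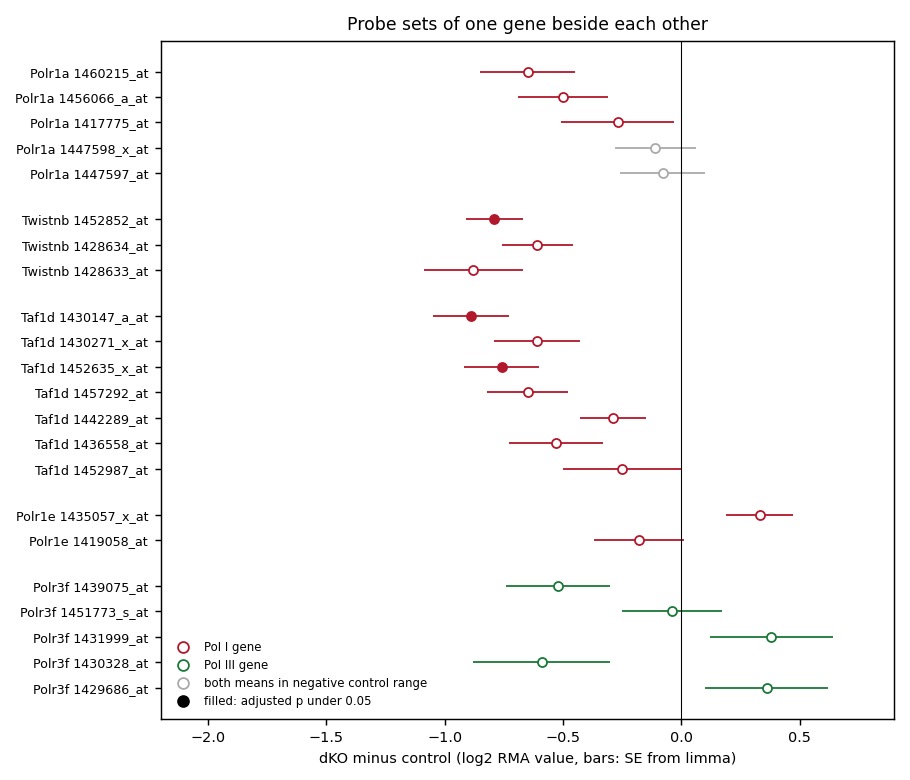
Differences between dKO and control on the log2 scale, with limma's SE as bars, for each probe set of Polr1a, Twistnb, Taf1d, Polr1e and Polr3f, sorted within a gene by control level. Polr1a, Twistnb and Taf1d probe sets all lie below 0, with 1 Twistnb and 2 Taf1d probe sets filled as past an adjusted p of 0.05, while those of Polr1e and Polr3f lie on both sides.

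Polr1c and Polr1d encode a pair of assembly subunits that polymerases I and III share. Polr1c was 10.26, 10.27 and 10.11 in control arrays and 9.52, 9.67 and 9.96 in dKO arrays. The groups did not overlap, and the difference was -0.50 ± 0.16 (SE, log2; adjusted p = 0.118). Its second probe set gave -0.26. Polr1d ranged from 9.08 to 9.92 over the controls and from 9.37 to 9.71 over the dKO arrays, a difference of 0.03 ± 0.23 (adjusted p = 0.965), and its sign changed with the scaling used (-0.06 after quantile normalization).

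In polymerase III, Polr3g fell by the largest amount of any member. It encodes one of the 2 alternative forms of a subunit that sits in a small subcomplex with Polr3c and Polr3f, needed for initiation. Polr3g is known for its high levels in pluripotent and transformed cells, while Polr3gl is present in most cell types. Polr3g values were 7.67, 7.65 and 7.37 in control arrays and 6.34, 6.26 and 6.29 in dKO arrays. The dKO arrays lay close together and all below the controls. Group means were 7.56 ± 0.17 in control and 6.30 ± 0.04 in dKO cells (SD, n = 3 arrays each). The decrease was 2.4-fold, or -1.27 ± 0.14 (SE) on the log2 scale, with a limma adjusted p of 0.00515. Polr3g kept its call in all 14 alternative settings, with log2 changes of -1.36 to -1.20 and adjusted p of 0.00336 to 0.0278. Leaving out probe sets ending in _s_at or _x_at could not change this call, because the only Polr3g probe set has neither ending.

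Polr3gl had values of 7.51, 7.78 and 7.57 in control arrays and 7.61, 7.72 and 7.51 in dKO arrays. The groups overlapped, with a difference of -0.01 ± 0.14 (SE, log2; adjusted p = 0.982). Within each array, Polr3g minus Polr3gl was 0.16, -0.13 and -0.21 in the controls and -1.27, -1.47 and -1.22 in the dKO arrays. Its change between the groups was -1.26 ± 0.13 (SE), with an exact two-sided permutation p of 0.1, the smallest that 3 arrays against 3 allow. The paralogs thus differed in their response by more than the spread between arrays. Each was read by 1 probe set, and how much of either transcript was present cannot be compared between probe sets.

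The largest polymerase III subunit, Polr3a, had 7.79, 8.20 and 7.66 in control arrays and 7.77, 8.24 and 8.70 in dKO arrays. The groups overlapped, dKO array 3 was the highest, and the difference was 0.35 ± 0.26 (adjusted p = 0.51). Its 3 probe sets gave differences from -0.32 to 0.35. Its spread within groups, 0.39, was the highest among the members. The examples with the smallest p after Polr3g were Polr3e, Polr3f and Polr3b. Polr3e, which acts in initiation and termination, was 8.39, 8.62 and 8.93 in control and 8.34, 8.23 and 8.17 in dKO arrays, with no overlap and a difference of -0.40 ± 0.17 (adjusted p = 0.226). Polr3f, a partner of Polr3g in its subcomplex, had -0.52 ± 0.22 (adjusted p = 0.233), but its 5 probe sets gave from -0.59 to 0.38. Polr3b, the second-largest subunit, read 8.39, 8.44 and 8.19 in control and 7.79, 7.95 and 8.19 in dKO arrays, with the highest dKO value just below the lowest control value (difference -0.37 ± 0.16, adjusted p = 0.236). Polr3c, Polr3d and Polr3k had differences of -0.30, 0.01 and 0.16. In all, 6 of the 9 polymerase III subunits were below 0 and 3 above, and 8 of 9 did not pass the test. Over all the enzymes, 16 members had more than 1 probe set, and in 8 of these the probe sets lay on both sides of 0.

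The 3 factors of the polymerase III initiation complex did not pass the test, and none had an unadjusted p under 0.05. Brf1, which serves transfer RNA genes, had 7.56, 7.21 and 6.96 in control arrays and 7.18, 7.35 and 7.49 in dKO arrays. The dKO values lay within the control range, and the difference was 0.10 ± 0.19 (SE, log2; adjusted p = 0.823). Brf2, which serves genes with an upstream promoter such as that of the U6 small nuclear RNA, had a difference of -0.17 (adjusted p = 0.684). Bdp1, which works with either Brf protein, read 9.21, 9.16 and 9.40 in control and 8.98, 8.94 and 9.18 in dKO arrays, a difference of -0.22 ± 0.14 (adjusted p = 0.435).

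**Figure D3:**
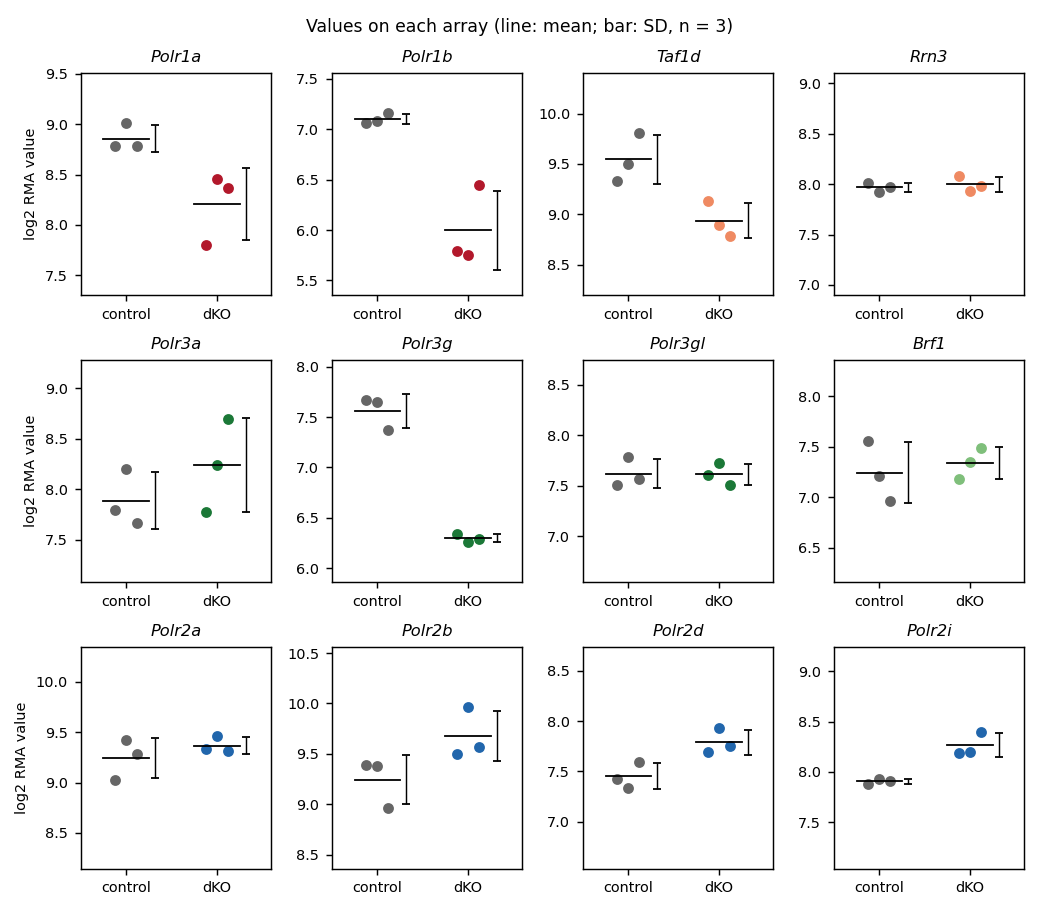
Log2 values on each array for 12 members (dots), with the group mean (line) and SD (bar, n = 3), all panels spanning the same log2 range. Polr3g and Polr1b stand apart between the groups, Polr3gl, Rrn3 and Brf1 overlap, and for Polr2b, Polr2d and Polr2i all dKO dots lie above all control dots.

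The median of the polymerase II subunits lay on the other side of 0 from those of the polymerase I and III subunits. All 8 found only in this enzyme had differences above 0, from 0.12 to 0.43, where 50.7% of all genes did. For 5 of them, Polr2b, Polr2d, Polr2g, Polr2i and Polr2j, every dKO value was above every control value, as for 15.8% of all genes. By limma, 0 of the 8 passed an adjusted p of 0.05 (lowest 0.164). An unadjusted p under 0.05 was found for 2 of them, where 12.3% of all genes were higher at that level. All 8 were above 0 in each of the 14 alternative settings, in which their median ranged from 0.25 to 0.35. Not all of these settings could change the signs. The level filter, the trended and robust prior and the replicate block left all 8 differences as they were. Of the other readings of a gene's probe sets, only the mean moved a value, that of Polr2a (0.08). With array weights or an array left out, the signs of the 5 without overlap could not change, and only those of Polr2a, Polr2c and Polr2m could. With the scaling any sign could change. All 8 stayed above 0 in these settings, which for the 5 is informative only for the scaling.

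The members with the smallest p were Polr2i, Polr2d, Polr2c and Polr2b. Polr2i, which takes part in start site choice and proofreading, read 7.88, 7.93 and 7.91 in control arrays and 8.19, 8.20 and 8.40 in dKO arrays (difference 0.36 ± 0.13 SE, log2; adjusted p = 0.164). Polr2d, which with Polr2g forms the stalk, had 7.43, 7.34 and 7.59 in control and 7.69, 7.93 and 7.75 in dKO arrays, a difference of 0.34 ± 0.14 (adjusted p = 0.223). For both genes the dKO arrays lay above the controls, and for Polr2i the control arrays lay close together. Polr2c, the polymerase II counterpart of Polr1c, had 7.25, 7.82 and 7.34 in control and 7.93, 8.02 and 7.73 in dKO arrays, with control array 2 above dKO array 3 (difference 0.43 ± 0.19, adjusted p = 0.248). Polr2b, the second-largest subunit and counterpart of Polr1b, had 9.39, 9.38 and 8.96 in control and 9.50, 9.96 and 9.57 in dKO arrays (difference 0.43 ± 0.19, adjusted p = 0.249). Polr2b and Polr1b thus lay on opposite sides of 0, which was not tested as a difference.

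Polr2a, the largest subunit, whose repeated tail gathers the factors of messenger RNA processing, was 9.03, 9.42 and 9.28 in control arrays and 9.33, 9.46 and 9.31 in dKO arrays. The groups overlapped, and the difference was 0.12 ± 0.15 (SE, log2; adjusted p = 0.708). A second probe set gave 0.05. Polr2g, Polr2j and Polr2m, the last a protein that attaches to the enzyme and restrains it, had differences of 0.25, 0.18 and 0.24. The 3 members that all the enzymes use had differences of both signs. These were 0.22 for Polr2e, -0.17 for Polr2f and 0.06 for Polr2h, with adjusted p from 0.517 to 0.869 and overlapping groups.

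**Figure D4:**
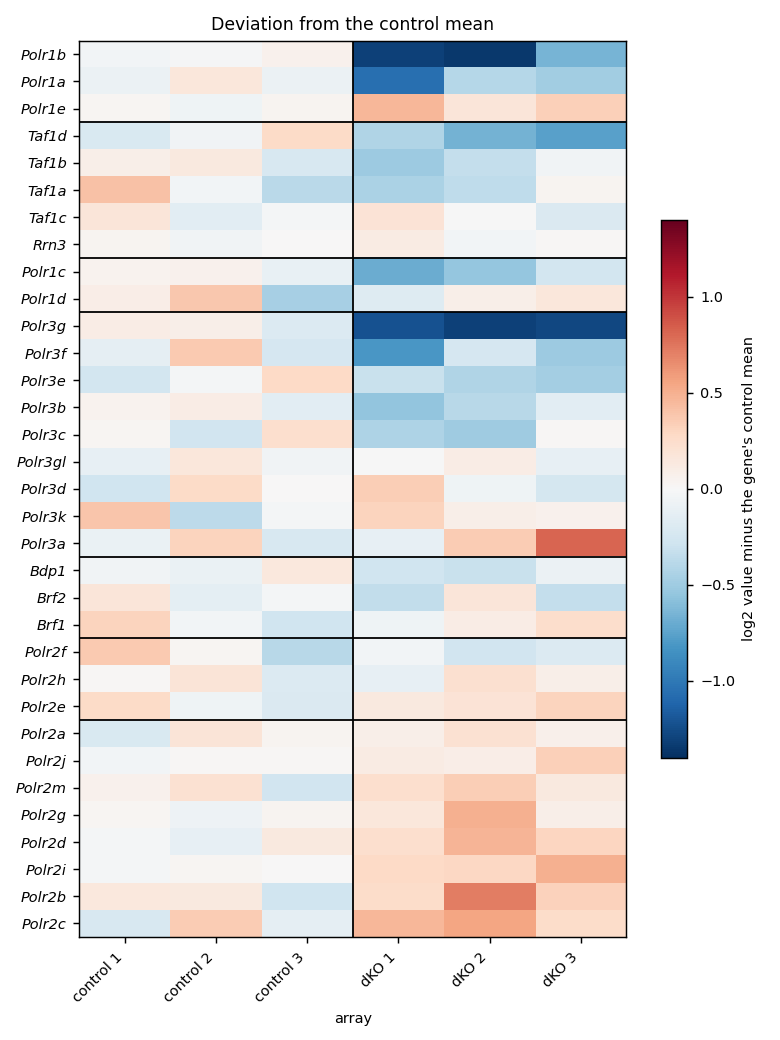
Each row is a member and each column an array, and the colour is the log2 value minus the gene's mean over the 3 control arrays, with lines between the groups of genes. Polr1b and Polr3g are the darkest blue rows in the dKO columns, and the polymerase II subunits at the bottom are red in all the dKO columns.

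The factors that work with the polymerases were read from lists, and in none of them did a gene pass the test beyond Twistnb. Of 5 polymerase I factors 0 were called, with a median log2 difference of 0.22. Taf12, a histone-fold subunit of the polymerase II factor TFIID, had 0.53 ± 0.15 (SE, adjusted p = 0.0953), and Ubtf, the architectural factor of ribosomal genes, 0.22 (adjusted p = 0.462). Tbp, which all the polymerases use, had 0.46 (adjusted p = 0.35). Among 16 general factors of polymerase II 0 were called (median 0.11), and the smallest p belonged to Gtf2f2 (0.47 ± 0.13, adjusted p = 0.0873), Gtf2a1 (0.48 ± 0.15) and Gtf2b (0.55 ± 0.20). Of 17 genes of pausing and elongation 0 were called (median 0.08). Ell2, an elongation factor, read 7.15, 7.20 and 7.46 in control and 9.10, 7.95 and 8.26 in dKO arrays, a difference of 1.17 ± 0.29 (adjusted p = 0.0601). Of 14 polymerase III factors 0 were called (median -0.05). Their smallest p belonged to Gtf3c6, a subunit of TFIIIC (0.43 ± 0.14, adjusted p = 0.122), and Maf1, the repressor of polymerase III, came next (-0.48 ± 0.17, adjusted p = 0.152). Of 8 assembly factors 0 were called (median -0.12, range -0.54 to 0.34).

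The labels were checked on the deleted genes and on cell type markers. Between dKO and control cells Myc differed by -2.93 on the log2 scale (limma adjusted p = 0.00137). Its dKO mean, 7.43, stayed above the negative control range. The brightest Mycn probe set differed by -7.35 (adjusted p = 2.34e-05) and ended in that range. The other Mycn probe sets differed by -1.61 (dKO mean 7.33, adjusted p = 0.00938) and -0.08 (control mean 4.40, dKO mean 4.32, adjusted p = 0.858). The source of the signal left in dKO cells was not tested. Gapdh, as a measure of RNA quality, read higher at its 3′ than at its 5′ end by 2.12 to 2.36 (control) and 2.39 to 2.47 (dKO). Of 6 stem cell markers read here 3 were lower (Kit, Hlf and Tek), their mean log2 level being 10.15 to 10.18 in control and 9.03 to 9.47 in dKO cells. Slamf1, which encodes CD150, did not pass the test, and Cd48, which the gate excludes, was higher by 1.16 (adjusted p = 0.0214). Of 5 megakaryocyte genes 3 were higher (Pf4, Itga2b and Ppbp) and 1 lower (Vwf), with a mean level of 8.23 to 8.48 in control and 9.59 to 10.01 in dKO cells. Of 3 erythroid genes 1 was lower (Klf1), their mean level being 5.71 to 6.20 in control and 4.88 to 5.60 in dKO cells. None of 9 granulocyte, 4 macrophage, 4 B cell or 5 T and NK cell genes was called. The granulocyte genes all had differences below 0, from -2.35 to -0.01, with a mean level of 6.15 to 7.31 in control and 5.29 to 6.63 in dKO cells. For the macrophage genes it was 5.17 to 5.35 and 5.26 to 5.37, for B cell genes 5.54 to 5.84 and 5.69 to 6.24, and for T and NK cell genes 5.01 to 5.22 and 5.09 to 5.36. Of the markers read here only Ncr1 and Hba-a1 had their group means in the negative control range. In pooled cells, fewer cells of a type and less RNA per cell cannot be told apart, and the part of these markers and of RNA quality in the differences of the polymerase genes was not tested.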

How the data were processed

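RNA of each pool was amplified over 2 rounds with a kit for very small samples and hybridized to a whole-genome mouse array, per the labels' protocols. The deposited values are log2 expression values made with RMA, per the submitters' processing notes. For RMA, version and options were not given in the sources used here. That the scale is log2 follows from the range of the values. RMA scales the arrays to each other, so differences are relative, and it compresses those of dim probe sets. All value columns were mapped to a sample, with groups from the titles.

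The annotation table gave 34945 of 45037 non-control probe sets a single gene symbol. Each probe set was fitted with limma 3.58.1 in R 4.3.3 (lmFit and eBayes, dKO minus control, 4 residual and 3.19 prior degrees of freedom, no block), with Benjamini-Hochberg adjustment over 45037 probe sets and a threshold of 0.05. SE is limma's and SD is over 3 arrays. The script was tested on simulated data, with 100 of 45037 probe sets changed by 1 and 100 by 2 on the log2 scale. Of these changes 32% and 98% were recovered, so a change of 1 or less can be missed. Described in full were members past the threshold, the largest subunit of each enzyme, Rrn3, Brf1, Polr3g and Polr3gl. Other members are examples by smallest p (up to 4 per class), and up to 3 genes by smallest p stand for each list. Ubtf and Slamf1, which this rule does not single out, the promoters shown, and other probe sets of Taf1d were chosen after values were seen, and the members and lists were chosen with earlier results of these data known. Alternatives were quantile scaling, median centring, leaving out probe sets with a mean under 5, eBayes with a trended and robust prior, array weights, 2 other readings of a gene's probe sets, a replicate block and each array left out.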

Additional observations from a re-analysis of the deposited data

How the results depend on the processing

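With the replicate number as a block, 1530 probe sets were called on the whole array, against 3146 without it, and both member calls were kept. No label ties equal numbers to a day or litter, and same-numbered arrays did not deviate together (r = -0.016, 0.002 and 0.013 over probe sets). No array correlated best with the array of its own number in the other group. Twistnb lost its call with the block (adjusted p = 0.0589). Without probe sets ending in _s_at or _x_at, 1 polymerase I initiation factor, Taf1d, was called (log2 change -0.89). With the mean of a gene's probe sets, the median difference was -0.32 for subunits found only in polymerase I and -0.16 for those only in polymerase III. The former was the value of Polr1a, whose mean takes in probe sets in the negative control range. With 1 array left out, 1338 to 1674 probe sets were called, 267 to 346 genes were lower (647 with all arrays), 1 to 2 members were lower, and 0 to 1 of the polymerase I subunits. The median was then -0.41 to -0.05 for polymerase I initiation factors and -0.37 to -0.19 for polymerase III subunits.

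Some members changed sign, most of them with differences near 0, and the cause was not tested. Quantile normalization gave -0.06 for Polr1d and -0.02 for Polr2h, centring on the median gave 0.05 for Polr3gl and 0.05 for Taf1c, and array weights gave -0.05 for Polr1d, -0.05 for Polr3d and 0.01 for Taf1c. The mean of all probe sets gave -0.11 for Polr1d and -0.16 for Polr3d, and leaving out _s_at and _x_at probe sets gave -0.18 for Polr1e (0.33 with its brightest probe set) and -0.34 for Polr3d. With 1 array left out the ranges were -0.04 to 0.26 for Brf1, -0.21 to 0.21 for Polr1d, -0.36 to 0.01 for Polr2f, -0.03 to 0.15 for Polr2h, -0.15 to 0.15 for Polr3d, -0.06 to 0.07 for Polr3gl, -0.03 to 0.36 for Polr3k, -0.01 to 0.06 for Rrn3 and -0.10 to 0.09 for Taf1c. The number of arrays limits the precision throughout.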

Other observations

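The array's own control probe sets, which were outside the test, include products of the polymerases, and they were chosen after their values were seen. The 3 probe sets of the small-subunit ribosomal RNA, a polymerase I product, lay between 12.83 and 13.85 on all arrays, where the highest value on any array was 13.85. Their differences, dKO minus control, were 0.01, -0.03 and 0.01 (log2), with overlapping groups, and near the top of the scale a change could be hidden. Repeats of the B1 and B2 families can be transcribed by polymerase III and also lie within polymerase II transcripts. A B2 probe set, AFFX-MUR_b2_at, read 9.29, 9.31 and 9.60 in control and 9.18, 9.04 and 9.06 in dKO arrays (difference -0.31). The B1 probe set read 11.71, 11.65 and 11.82 in control and 11.61, 11.61 and 11.56 in dKO arrays (difference -0.13). In both, every dKO value was below every control value, with an exact two-sided permutation p of 0.1, the smallest possible here. The other B2 probe set read 13.48, 13.50 and 13.53 in control and 13.60, 13.53 and 13.56 in dKO arrays (difference 0.06).

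The 12 probe sets of bacterial RNAs added as controls had mean log2 values of 11.94, 10.55 and 12.01 in control arrays 1, 2 and 3 and of 11.25, 11.23 and 11.35 in the dKO arrays. Control array 2 thus read lower than all the other arrays and the other control arrays higher than all the dKO arrays.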
